A study of Homo sapiens with 12 samples.

Results

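Glandular epithelia coat their free surface with mucins and CEA-family glycoproteins and secrete small antimicrobial and antiprotease proteins. This account follows 8 genes of that programme through 3 head and neck cancer cell lines: MUC1, MUC4, CEACAM1, CEACAM5, CEACAM6, LCN2, SLPI and PI3. They were chosen by symbol, 8 of 11963 genes that the platform table names with 1 symbol, and every probe set (a group of short probes read as 1 value) whose only symbol was one of them was taken. That gave 19 probe sets.

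The labels name a Detroit line, without saying which one, and the lines Fadu and OECM1, squamous carcinomas of hypopharyngeal and oral origin. Each line was measured as parent cells and as an invasion subline, that is, cells recovered for strong invasion by a Matrigel method (Matrigel is a basement membrane extract), with 2 arrays in each of the 6 groups. No other treatment or genetic change is named, and whether a subline was 1 clone or a pool, and whether duplicates came from separate cultures, was not stated, so each p-value reflects the spread of these samples alone and that spread may be technical.

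MUC1 and MUC4 are membrane mucins: long, heavily O-glycosylated rods that keep other cells and matrix at a distance and carry signalling tails or growth-factor-like domains near the membrane, and MUC4 can associate with ERBB2. CEACAM1, CEACAM5 and CEACAM6 are immunoglobulin-family adhesion proteins. CEACAM1 spans the membrane and has inhibitory motifs in its longer tails, whereas CEACAM5 (the carcinoembryonic antigen measured in serum) and CEACAM6 are held by a lipid anchor. LCN2 is a lipocalin that binds bacterial siderophores, and SLPI and PI3 (elafin) are WAP-domain inhibitors of neutrophil serine proteases. In squamous epithelium LCN2, SLPI and PI3 are known as genes that inflammatory cytokines induce.

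Values are the deposited log2 RMA values, on which a step of 1 is a doubling of signal. A probe set was tested if it exceeded 4.52 (the 40th percentile over the whole table) on 2 or more arrays, which 15124 probe sets did, and 14 of the 19 member probe sets were among them. MUC4 had 0 of 3 probe sets past that filter and CEACAM1 3 of 5, and all probe sets of the other 6 genes passed. CEACAM5 201884_at and CEACAM6 203757_s_at passed only through the Detroit parent arrays, so those 2 probe sets could hardly be tested without differing. A probe set was called when its adjusted p was under 0.05 in limma, with Benjamini-Hochberg adjustment over the 15124. Arrays have no read depth, and their number limited the precision.

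The arrays labelled Detroit invasion subline went against that label. Over all tested probe sets, their mean profile differed from the Fadu parent by a root-mean-square log2 difference of 0.44 and from the Detroit parent by 0.75, whereas the Fadu subline lay 0.34 and the OECM1 subline 0.38 from their own parents. KRT14, a basal keratin, read 11.52 and 9.52 on those arrays, 9.08 and 8.66 for Fadu parent cells, and 4.11 and 4.0 for Detroit parent cells. Other squamous markers were mixed. DSG3, at 6.43 and 9.13, was nearer the Fadu parent (7.08 and 6.48) than the Detroit parent (4.66 and 4.47). TRIM29, at 9.18 and 9.14, was nearer the Detroit parent (9.62 and 9.07) than the Fadu parent (8.49 and 8.88). KRT5, at 10.53 and 8.66, did not separate the Fadu parent (10.08 and 10.41) from the Detroit parent (8.72 and 9.44). The Detroit comparison is therefore given as a comparison of the arrays so labelled, and the Detroit parent is also set against the other parents. All 10 of the squamous carcinoma markers measured, of 13 listed, lay above the limit on at least 2 arrays. So did 2 of 10 neutrophil and myeloid, 1 of 5 endothelial, 4 of 7 lymphocyte, 5 of 7 fibroblast and 4 of 8 salivary gland markers. The remaining markers of these lists, with MPO, ELANE, CEACAM8 and PTPRC among them, lay below it on every array. KRT14 read 3.9 to 4.94 on the OECM1 arrays, so the squamous count does not describe each line. KRT18 and EPCAM are also on the list of glandular and simple epithelial surface genes read below, so the count is not specific to squamous cells. Differences in bulk RNA cannot tell apart fewer cells making a transcript from less of it per cell.

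**Figure D1:**
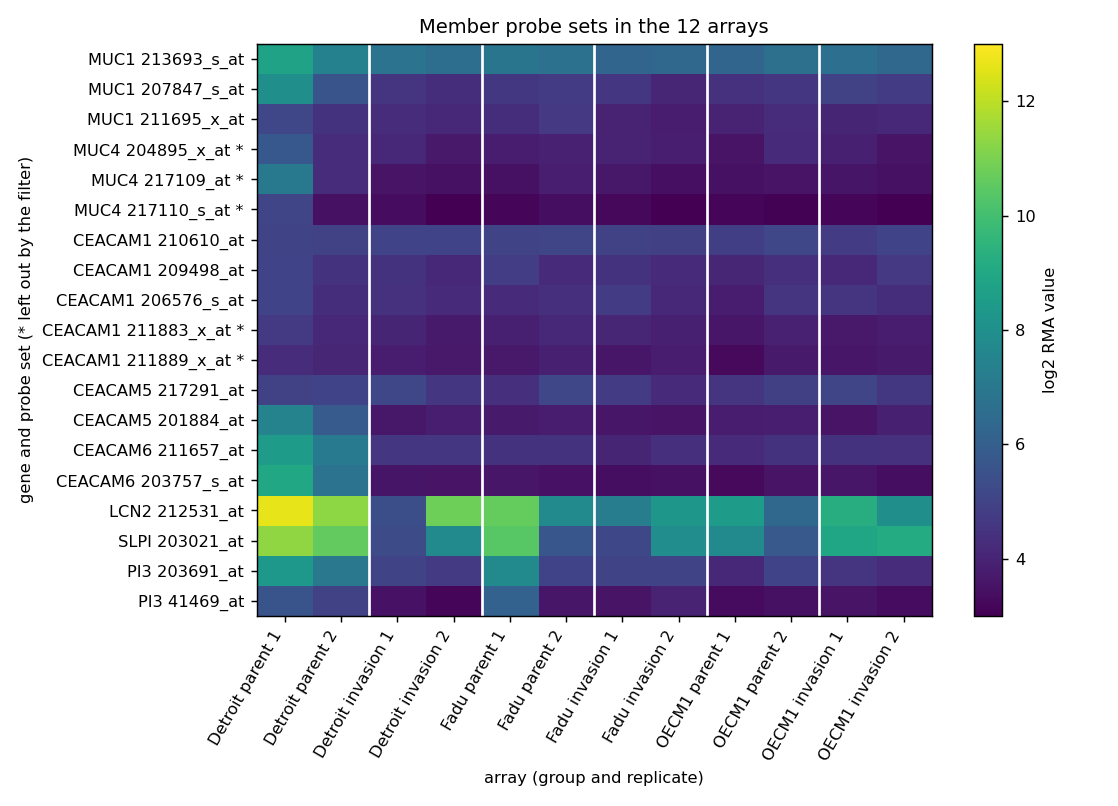
Log2 RMA value (colour) of each of the 19 member probe sets (rows) on each of the 12 arrays (columns, by group and replicate), with an asterisk for probe sets left out by the low-value filter. The Detroit parent arrays stand out from MUC1 to CEACAM6, apart from flat rows of CEACAM1 and of CEACAM5 217291_at, while LCN2 and SLPI vary across every group.

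The Detroit parent held the highest values of the programme. In 12 of the 19 member probe sets, tested or not, its 2 arrays were the 2 highest of the 12. Among tested probe sets this held for 7 of 14 members and for 5.09% of all. The 7 include the 2 probe sets that the filter kept only through those arrays. MUC1, MUC4, CEACAM5 and CEACAM6 were highest in the Detroit parent by group mean, CEACAM1 stayed near the limit, LCN2 and SLPI were above it on every array, and PI3 was high on 3 arrays.

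MUC1 was measurable in all 6 groups. On 213693_s_at the Detroit parent arrays read 8.77 and 7.39, the Fadu parent 6.88 and 6.74, and the OECM1 parent 6.26 and 6.68. The sublines read 6.79 and 6.60 for Detroit, 6.28 and 6.35 for Fadu, and 6.67 and 6.39 for OECM1. Both Detroit parent arrays were above the other 10, and neighbouring groups below them in the order of means overlapped. A second probe set, 207847_s_at, read 7.99 and 5.58 in the Detroit parent and between 4.08 and 4.93 elsewhere. The third, 211695_x_at, stayed between 3.81 and 5.11, and its Detroit parent pair overlapped the Fadu parent pair.

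MUC4 was close to the floor outside the Detroit parent. Its probe set 217109_at read 7.06 and 4.26 on the 2 Detroit parent arrays and between 3.41 and 3.83 on the other 10. The same array, Detroit parent replicate 1, was the only one above 4.52 in 204895_x_at, at 5.75, and in 217110_s_at, at 5.10. MUC4 signal above the limit thus came from 1 array of 12, and no MUC4 probe set entered the test. In the fit with no filter, 217109_at differed by -2.19 between the Detroit groups (limma adjusted p = 0.127).

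CEACAM6 and CEACAM5 were near the floor in 5 of the 6 groups. CEACAM6 203757_s_at read 8.97 and 6.82 in the Detroit parent and between 3.27 and 3.62 on the other 10 arrays. Its second probe set, 211657_at, read 8.52 and 7.08 there and between 4.05 and 4.58 elsewhere. CEACAM5 201884_at read 7.47 and 5.88 in the Detroit parent and between 3.52 and 3.88 elsewhere, so that none of these 3 probe sets overlapped between the Detroit parent and any other group. Among the other 5 groups neighbouring means mostly overlapped, with small gaps in 201884_at between the OECM1 and Fadu parents and in 211657_at between the Detroit subline and the Fadu parent.

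The 2 CEACAM5 probe sets did not behave alike. The second, 217291_at, ran from 4.23 to 5.12 with every neighbouring pair of groups overlapping, and read 4.96 and 5.02 in the Detroit parent. Its Pearson r with 201884_at over the 12 arrays was 0.29. Because 217291_at has the higher mean, a summary that takes 1 probe set per gene by mean level shows CEACAM5 as flat. CEACAM5 and CEACAM6 are close relatives, so signal that their probe sets may share cannot be told apart here.

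CEACAM1 stayed near the limit. Its 5 probe sets had their highest value at 5.14, on 210610_at, which ran only from 4.76 to 5.14. The Detroit parent had the highest group mean in the other 4. On 209498_at and 206576_s_at its replicate 1 reached 5.03 and 5.01, with groups that overlapped. On the untested probe sets 211883_x_at and 211889_x_at it read 4.71 and 4.15, and 4.25 and 4.09, and these were the 2 highest arrays of the 12 in each. A CEACAM1 level like that of CEACAM5 or CEACAM6 in the Detroit parent was not detectable with these probe sets.

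CEACAM5 and CEACAM6 lie next to each other on chromosome 19 with 0 protein-coding genes between them in RefSeq's gene order, and 24 such genes separate CEACAM6 from CEACAM1. Their promoter windows (250 bases before to 50 after the RefSeq start, GRCh38.p14) are shown because CEACAM5 and CEACAM6 were high in the same 2 arrays and CEACAM1 was not. The windows are chr19:41708376-41708675 on the plus strand for CEACAM5, chr19:41755280-41755579 on the plus strand for CEACAM6 and chr19:42528432-42528731 on the minus strand for CEACAM1. Capitals mark the E-box CACGTG.
CEACAM5: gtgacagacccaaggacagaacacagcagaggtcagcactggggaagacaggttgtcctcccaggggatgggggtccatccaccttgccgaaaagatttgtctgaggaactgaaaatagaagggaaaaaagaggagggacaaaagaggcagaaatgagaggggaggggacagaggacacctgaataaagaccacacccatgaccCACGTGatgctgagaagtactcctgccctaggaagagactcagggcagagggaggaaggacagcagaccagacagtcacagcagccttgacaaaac
CEACAM6: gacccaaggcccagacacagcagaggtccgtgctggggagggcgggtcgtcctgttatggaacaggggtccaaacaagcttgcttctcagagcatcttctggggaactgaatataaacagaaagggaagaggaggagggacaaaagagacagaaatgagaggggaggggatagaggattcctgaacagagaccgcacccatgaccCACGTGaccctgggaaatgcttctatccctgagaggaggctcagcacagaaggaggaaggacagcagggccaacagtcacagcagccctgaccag
CEACAM1: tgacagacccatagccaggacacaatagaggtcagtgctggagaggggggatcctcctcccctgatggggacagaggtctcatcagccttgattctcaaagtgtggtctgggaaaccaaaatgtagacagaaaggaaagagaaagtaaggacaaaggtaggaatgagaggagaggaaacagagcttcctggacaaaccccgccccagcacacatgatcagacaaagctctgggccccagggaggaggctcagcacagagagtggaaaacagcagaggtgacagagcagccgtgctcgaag

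The E-box began 46 bases before the start in CEACAM5 and 45 bases before it in CEACAM6, and CACGTG, which reads the same on both strands, was in 7.26% of 35116 RefSeq promoter windows of this length. CEACAM1 had none in its window. It was the only one of 5 motifs searched on both strands that CEACAM5 and CEACAM6 shared. Of all windows, the TATA box TATAAA was in 11.5%, the GC box GGGCGG in 45.0%, the AP-1 site TGANTCA in 7.71% and the CCAAT box in 34.6%. In a global alignment with gaps counted as mismatches, CEACAM5 and CEACAM6 windows were 75.9% identical, CEACAM5 and CEACAM1 67.1%, and CEACAM6 and CEACAM1 68.7%. The same alignment of CEACAM5 with the unrelated promoters of LCN2 and MUC4 gave 51.3% and 48.6%. The CEACAM windows held few CpG dinucleotides, 2 in CEACAM5, 5 in CEACAM6 and 3 in CEACAM1, against 6 in LCN2, 12 in MUC4, 13 in MUC1 and a median of 14 over all windows. Of the 8 members, 6 had a promoter entry. These are descriptions of the windows, and no binding or methylation was measured.

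LCN2 was the most variable member between duplicates. The Detroit parent read 12.62 and 11.30, the Fadu parent 10.63 and 7.75, and the OECM1 parent 8.49 and 6.37. The sublines read 5.40 and 10.79 for Detroit, 7.25 and 8.30 for Fadu, and 9.24 and 7.98 for OECM1. Every array was above 4.52, and only the Detroit parent stood clear of its neighbour in the order of group means. The gap of 5.39 between the 2 Detroit subline arrays was exceeded by 0.0264% of tested probe sets in that group.

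SLPI had the same reach. The parents read 11.35 and 10.58 for Detroit, 10.41 and 5.67 for Fadu, and 7.74 and 5.79 for OECM1. Its sublines read 5.31 and 7.73 for Detroit, 5.15 and 7.92 for Fadu, and 8.90 and 9.16 for OECM1. The Detroit parent was again the highest group without overlap, and the OECM1 subline was the second by mean and the only other group with closely placed duplicates. The Fadu parent gap of 4.74 was exceeded by 0.00661% of tested probe sets, and the Fadu subline gap of 2.77 by 0.0198%.

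PI3 was high on 3 arrays. On 203691_at the Detroit parent read 8.34 and 6.99 and the Fadu parent 7.80 and 5.0, and the other 8 arrays lay between 4.1 and 5.06. On 41469_at the same arrays read 5.61 and 4.95 for the Detroit parent and 6.14 and 3.59 for the Fadu parent, with the rest between 3.18 and 3.95. Both probe sets placed Fadu parent replicate 1 with the Detroit parent, and r between them was 0.96 over the 12 arrays and 0.96 over the 10 arrays without the Detroit parent. The Fadu parent gap of 2.80 was exceeded by 0.0793% of tested probe sets in that group.

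Fadu parent replicate 1 was the higher of its pair in all 3 secreted genes, so the gap there was shared by LCN2, SLPI and PI3. In the Detroit parent, replicate 1 was the higher in every member probe set except CEACAM5 217291_at, at 4.96 and 5.02. The gap was 2.15 for CEACAM6 203757_s_at, 1.58 for CEACAM5 201884_at, 2.41 for MUC1 207847_s_at and 2.81 for MUC4 217109_at. For CEACAM6 211657_at it was 1.44 and for MUC1 213693_s_at 1.38, exceeded by 2.71% and 3.11% of tested probe sets in that group. The difference between the 3' and 5' ACTB control probe sets, a measure of RNA completeness, ran from -0.28 to 0.87 over the arrays. Within the 6 duplicate pairs the array with the larger difference had the higher SLPI in 6 of 6 pairs and the higher LCN2 in 5 of 6, as did 4.51% and 13.2% of tested probe sets. For PI3 203691_at this was 2 of 6, and for the CEACAM6 probe sets 4 and 3 of 6. For CEACAM5 217291_at it was 0 of 6, as it was for 9.26% of tested probe sets. The part of RNA completeness in the LCN2 and SLPI values was not tested beyond the covariate fit given with the Detroit comparison.

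**Figure D2:**
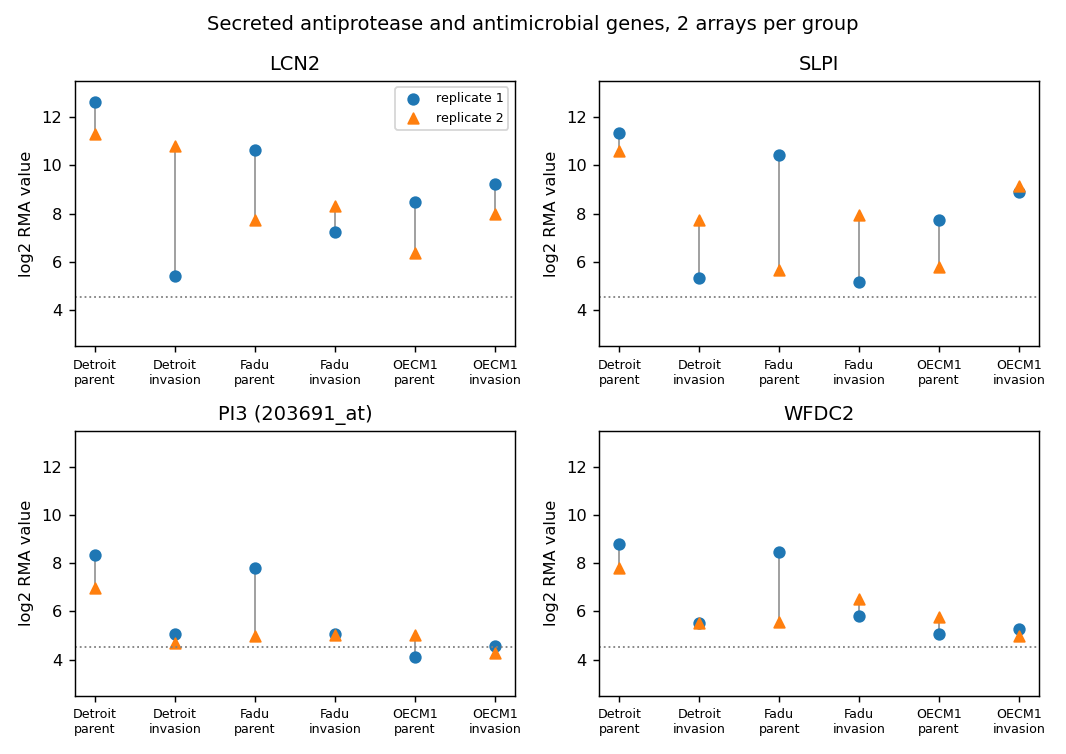
Log2 RMA values of LCN2, SLPI, PI3 and WFDC2 (vertical axes) in the 6 groups (horizontal axes), with a circle for replicate 1, a triangle for replicate 2, a grey line joining duplicates and a dotted line at the filter limit of 4.52. Fadu parent replicate 1 lies near the Detroit parent in each panel, and the Detroit subline duplicates of LCN2, at 5.40 and 10.79, are the farthest apart.

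The first comparison asks which transcripts accompany selection for invasion within a line. In the arrays labelled Detroit, CEACAM6 and CEACAM5 fell from parent to invasion subline, and no member was called higher. CEACAM6 was lower by 4.34 on the log2 scale on 203757_s_at (20.2-fold, SE 0.506, limma adjusted p = 0.00110). On 211657_at it was lower by 3.23 (9.38-fold, SE 0.376, limma adjusted p = 0.00110). CEACAM5 was lower by 2.94 on 201884_at (7.66-fold, SE 0.401, limma adjusted p = 0.00308), whereas its other probe set, 217291_at, differed by -0.14 (limma adjusted p = 0.940). These were 3 calls among 14 tested member probe sets, in a comparison that called 3.02% of all tested probe sets, 260 lower and 197 higher.

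The remaining members did not pass. The MUC1 difference was -2.36 on 207847_s_at (limma adjusted p = 0.0546), -1.38 on 213693_s_at (0.109) and -0.59 on 211695_x_at (0.290). SLPI differed by -4.44 (SE 1.40, limma adjusted p = 0.128) and LCN2 by -3.87 (SE 1.49, limma adjusted p = 0.224), sizes like that of CEACAM6 with larger SEs. PI3 differed by -2.79 on 203691_at (SE 0.737, limma adjusted p = 0.0747) and -1.95 on 41469_at (0.128). The median difference over the 14 was -2.15, against -0.01 over all tested probe sets, and the subline lay below the parent without overlap in 11 of 14, against 18.8% of all. The 2 probe sets that the filter kept only through the Detroit parent are among those 11 and among the calls, so neither count is support beyond the values. The 3 CEACAM1 probe sets differed by -0.46, -0.34 and 0.00.

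The CEACAM calls rested on the spread shared by all 6 groups. With only the 4 Detroit arrays in the fit, the same differences had limma adjusted p of 0.114, 0.117 and 0.138, and 0 members were called. Single arrays moved other members: LCN2 differed by -6.56 without Detroit invasion replicate 2 and by -1.17 without replicate 1. MUC1 207847_s_at differed by -3.56 without Detroit parent replicate 2. For PI3 203691_at, leaving out either Fadu parent array changed only the shared spread, since those arrays do not enter its Detroit difference. With the ACTB difference as a covariate LCN2 differed by -4.93 (limma adjusted p = 0.0195) and SLPI by -5.48 (0.00588). The fibroblast list had a summed linear signal of 380 in the Detroit parent and 178 to 182 in the other groups, with COL1A2 at 8.50 and 5.35 there and LUM and COL3A1 below the limit on all arrays; its part in the Detroit comparison was not tested. The salivary gland list summed to 301 there and 241 to 270 elsewhere, with HTN1, STATH, LPO and MUC7 below the limit throughout.

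**Figure D3:**
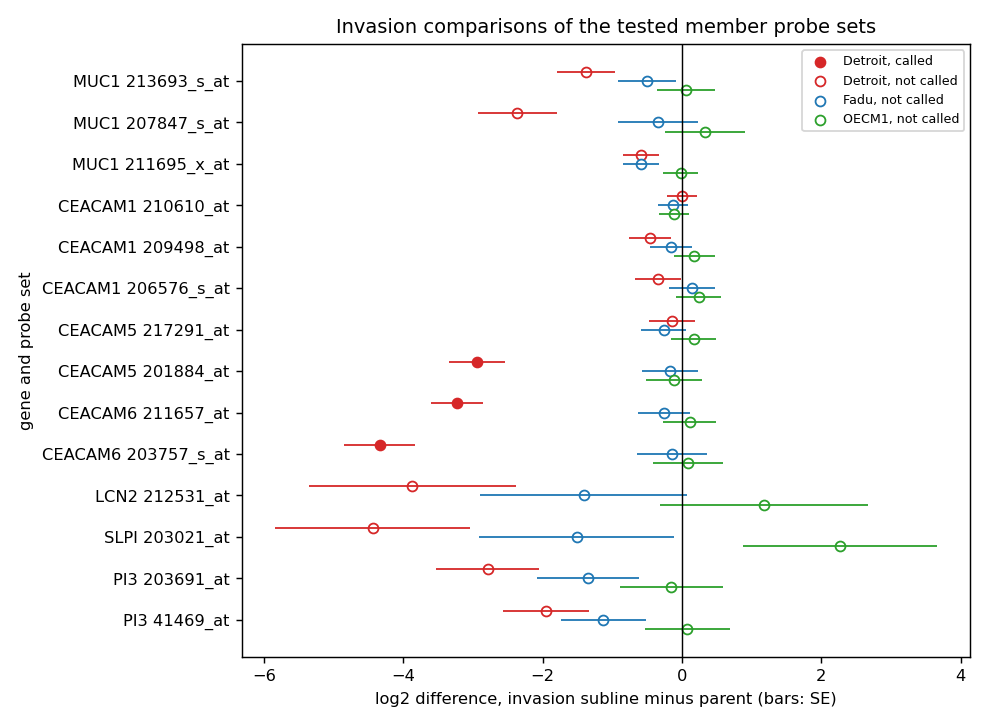
Log2 difference of invasion subline minus parent (horizontal axis, bars are the SE from limma) for each of the 14 tested member probe sets (vertical axis) in Detroit (red), Fadu (blue) and OECM1 (green), with filled points for calls. The 3 filled points are the CEACAM6 and CEACAM5 probe sets in Detroit, and the bars of LCN2 and SLPI are the widest in every line.

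In Fadu 0 of 14 member probe sets were called, where 0.0198% of all tested probe sets were (3 calls, and 265 at an unadjusted p under 0.05). The differences were small for the surface genes, -0.50, -0.34 and -0.59 for MUC1, -0.14 and -0.26 for CEACAM6 and -0.17 for CEACAM5 201884_at. LCN2 differed by -1.41, SLPI by -1.51 and PI3 by -1.35 and -1.13 (limma adjusted p of 1 for each). Leaving out Fadu parent replicate 1 turned LCN2 to 0.03, SLPI to 0.86 and PI3 203691_at to 0.05, so those negative differences rested on that array. The median over the members was -0.30, and 7 of 14 lay below the parent without overlap, against 17.0% of all.

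In OECM1 0 of 14 were called, against 0.00661% of all tested probe sets (1 call, and 498 at an unadjusted p under 0.05). SLPI was 2.27 higher in the subline (SE 1.40, limma adjusted p = 1.00), with both subline arrays above both parent arrays, and LCN2 1.18 higher with overlapping arrays. PI3 differed by 0.08 on 41469_at and by -0.15 on 203691_at, which turned to 0.31 without OECM1 parent replicate 2. MUC1, CEACAM5 and CEACAM6 differed by at most 0.33 in either direction, and the median over the members was 0.10.

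The difference between lines was tested directly. The CEACAM6 difference of the Detroit pair was larger than that of the OECM1 pair by -4.43 on 203757_s_at and -3.34 on 211657_at (limma adjusted p = 0.0179 and 0.0170), and larger than that of the Fadu pair by -4.19 and -2.97 (0.0301 and 0.0379). These contrasts called 0.707% and 0.529% of all tested probe sets. CEACAM5 201884_at differed by -2.82 and -2.76 and did not pass (0.0552 and 0.0780). The filter kept CEACAM6 203757_s_at and CEACAM5 201884_at only through the Detroit parent arrays. Their results here and in the F test that follows are therefore not support beyond the values. An F test of equal differences in the 3 lines called the 2 CEACAM6 probe sets (limma adjusted p = 0.0237 and 0.0254), where it called 0.602% of all. That test had 0 member calls with array weights and in 9 of 12 fits that each left out 1 array, and 4 without Detroit parent replicate 2; with array weights the contrast with OECM1 also had 0.

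SLPI had the widest separation between lines, -6.71 for Detroit against OECM1 (SE 1.97, limma adjusted p = 0.199), and LCN2 -5.05 (SE 2.11, 0.420); neither passed. Between the Fadu and OECM1 effects 0 probe sets were called of all tested (0%; 347 at an unadjusted p under 0.05), with SLPI at -3.77. The CEACAM6 call against Fadu was lost in 9 of 12 fits that each left out 1 array, with limma adjusted p up to 0.135 and 0.189, and the call against OECM1 in 4 of 12, each leaving out an OECM1 array, with values up to 0.0839 and 0.0771. The differences themselves kept their sign, between -5.27 and -3.12 and between -5.50 and -3.35 on 203757_s_at.

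Averaged over the 3 line pairs, with lines as replicates, 0 probe sets were called in all (0%; 645 at an unadjusted p under 0.05). PI3 203691_at averaged -1.43 (SE 0.510, limma adjusted p = 0.849), CEACAM6 203757_s_at -1.46 (SE 0.943, 0.849), LCN2 -1.37 and SLPI -1.23. The average of CEACAM6 mixed 1 large difference with a pair near 0.

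The comparison of parents asks how the lines differed before selection, and it shares the Detroit parent arrays with the comparison above. CEACAM6 was higher in the Detroit parent than in the Fadu parent by 4.35 and 3.35 (limma adjusted p = 0.00170 and 0.00130), and CEACAM5 201884_at by 2.92 (0.00453), 3 of 14 members where 2.29% of all tested probe sets were called. Against the OECM1 parent CEACAM6 was higher by 4.50 and 3.47 (0.000799 and 0.000583), CEACAM5 201884_at by 2.86 (0.00351) and PI3 203691_at by 3.10 (0.0479), 4 of 14 where 3.29% were called. The other CEACAM5 probe set, 217291_at, differed by 0.22 from Fadu and 0.30 from OECM1 (limma adjusted p = 0.830 and 0.703). The other PI3 probe set, 41469_at, differed by 1.91 from OECM1 (limma adjusted p = 0.133). CEACAM6 203757_s_at and CEACAM5 201884_at, which the filter kept only through the Detroit parent, are among the calls in both comparisons. Neither count is therefore support beyond the values. These CEACAM calls held in all 12 fits that left out 1 array, while that of PI3 was lost in 8 of 12.

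MUC1 was 2.10 and 2.27 higher in the Detroit parent on 207847_s_at and did not pass (limma adjusted p = 0.0988 against Fadu and 0.0596 against OECM1). On 213693_s_at it was 1.27 and 1.61 higher (limma adjusted p = 0.174 and 0.0641). On 211695_x_at it was 0.32 and 0.67 higher (limma adjusted p = 0.668 and 0.213). LCN2 was 2.78 and 4.54 higher and SLPI 2.92 and 4.20 higher, with adjusted p from 0.143 to 0.462 in limma. The Fadu and OECM1 parents had 0 of 14 member calls where 2.43% of all tested probe sets were called (367 calls). PI3 was 1.83 higher in Fadu there, a mean carried by replicate 1 of the Fadu parent.

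The arrays labelled Detroit invasion subline were also set against the Fadu parent, the parent they resembled. Of all tested probe sets 0 were called (0%; 558 at an unadjusted p under 0.05). The CEACAM6 probe sets differed by 0.01 and 0.12, CEACAM5 201884_at by -0.01 and MUC1 by -0.11, -0.25 and -0.27. PI3 differed by -1.52 and -1.53, LCN2 by -1.09 and SLPI by -1.52. On the 14 member probe sets alone the root-mean-square difference of these arrays was 0.24 from the OECM1 parent, 0.77 from the Fadu parent and 2.57 from the Detroit parent.

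The genes around the members were read through lists of related genes, each gene by its highest-mean probe set. Of the 9 other mucins tested, 0 were called in any of the 3 invasion comparisons, and of the 7 other CEA-family genes 0. The median Detroit difference was -0.04 and -0.12 in these lists. Among 24 enzymes that build mucin-type O-glycans, 1 was called in the Detroit comparison, where 3.02% of all tested probe sets were. This was GALNT1, which adds the first sugar, lower in the Detroit subline by 2.29 (limma adjusted p = 0.0206). The list median was -0.81 against -0.01 over all tested.

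Of 25 other glandular and simple epithelial surface genes, 3 were lower and 1 higher in the Detroit comparison. That comparison called 3.02% of all tested probe sets. AGR2, an endoplasmic reticulum disulfide isomerase needed for mucin folding, was 3.99 lower (15.9-fold, limma adjusted p = 0.000375). PSCA, a lipid-anchored surface antigen, was lower by 3.42 (0.00589) and CD24, a small mucin-like surface protein, by 3.25 (0.00110). CLDN7, a tight junction protein, was 1.69 higher (0.0290), so the surface list moved in both directions, with a median of -0.30. PSCA, like CEACAM5, was high in the Detroit parent alone, at 8.05 and 6.0 against 3.35 to 4.87 elsewhere.

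Of 24 other secreted antimicrobial and antiprotease genes, 2 were lower in the Detroit comparison. The share called there over all tested probe sets, 3.02%, applies to each list count. CST6, a cystatin that inhibits cysteine proteases, was 4.34 lower (20.3-fold, limma adjusted p = 0.00127), and AGR2 is also on this list. Unlike CEACAM6, CST6 was also high in OECM1, where its arrays read 7.84 to 8.98. LCN2 and SLPI read 6.37 to 9.24 and 5.79 to 9.16 on those arrays. In Fadu, CST6 read 7.01 and 7.01 in the subline and 5.46 and 5.89 in the parent. Of 31 inducing cytokines, receptors and factors, EHF, an epithelial ETS factor, fell by 4.50 (0.000745) and TLR2, a receptor for bacterial lipoproteins, fell by 2.23 (0.00583). Of 17 partners and targets, TGM2 was 2.18 lower (0.00838) and TGM1, the keratinocyte transglutaminase that cross-links PI3 into the cornified envelope, was 1.95 higher (0.0223). In the Fadu and OECM1 comparisons 0 genes of these lists were called, where 0.0198% and 0.00661% of all tested probe sets were.

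**Figure D4:**
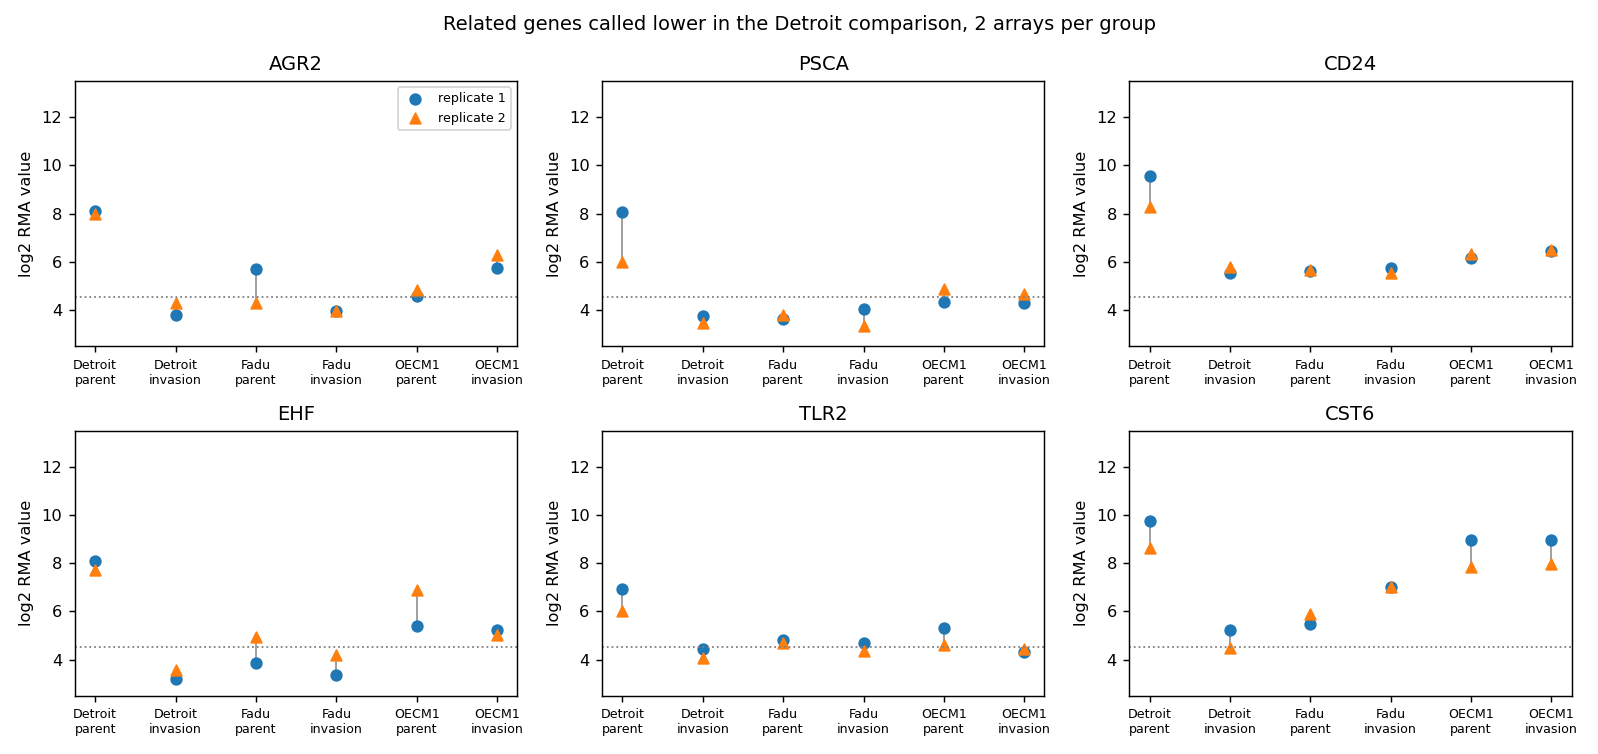
Log2 RMA values (vertical axes) of AGR2, PSCA, CD24, EHF, TLR2 and CST6 in the 6 groups (horizontal axes), with a circle for replicate 1, a triangle for replicate 2, a grey line joining duplicates and a dotted line at the filter limit of 4.52. In each panel the Detroit parent is above the Detroit subline in both arrays, and CST6 is also high in the OECM1 groups. CST6 reads 7.01 on both Fadu subline arrays. In the OECM1 groups AGR2 reads 4.58 to 6.26 and EHF 5.04 to 6.9.

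Between the parents, 3.29% of all tested probe sets were called for Detroit against OECM1. The share was 2.29% for Detroit against Fadu and 2.43% for Fadu against OECM1. Calls in these lists were as follows. Against the OECM1 parent, the Detroit parent had 7 of the 25 surface genes higher and 0 lower, led by KRT19 at 4.16 (limma adjusted p = 0.00443), AGR2 at 3.33 (0.00135) and CD24 at 2.69 (0.00362). KRT19 is a keratin of simple epithelium. IL1A and IL1B, cytokines that induce LCN2 and SLPI, were lower in the Detroit parent by 4.28 and 3.20 (0.00171 and 0.0126), whereas CEBPD and TLR2 were 1.74 and 1.53 higher (0.0440 and 0.0363). By mean among the parents, LCN2, SLPI and PI3 were highest and IL1A and IL1B lowest in Detroit. LCN2 and SLPI were not called between any parents, and a link to IL1A or IL1B was not tested. Against the Fadu parent 3 surface genes were higher, PSCA by 3.33, CD24 by 3.29 and AGR2 by 3.05, and 0 lower. Of the secreted list, CST6 was 3.51 higher there and SERPINA1, an antiprotease of plasma, differed by -1.88, and CSTB, a cystatin, was 2.24 higher than in the OECM1 parent. EHF was 3.5 higher, TLR2 1.72 higher and TGM2 2.15 higher in the Detroit than in the Fadu parent. Between the Fadu and OECM1 parents 5 surface genes were higher in Fadu, led by KRT19 at 3.35, CLDN7 at 2.98 and ST14, a membrane serine protease, at 1.94. The secreted and inducing lists had calls in both directions there, with SERPINA1 at 1.95 and CEBPD at 2.62 higher in Fadu and CST6 and IL1A lower, at -2.74 and -3.12.

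By the same rule, the genes most like each member over the 12 arrays were listed by Pearson r among about 9000 genes that passed the filter, as a description in which points share groups and duplicates. CEACAM6 was most like COL5A2 (r = 0.994), MMP7 (0.985) and TMPRSS4 (0.985), and CEACAM5 201884_at most like CEACAM6 (0.990). Without the 2 Detroit parent arrays these r were 0.513, 0.099, 0.458 and 0.225. MUC1 kept more of its r with TMPRSS4 (0.960, then 0.721), CDH6 (0.955, then 0.606) and HLA-DRA (0.954, then 0.594), and MUC4 ranged widely, with CD74 (0.970, then 0.815), COL1A2 (0.958, then 0.611) and IDO1 (0.931, then 0.347).

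The r of PI3 changed little without the Detroit parent. Its nearest gene was WFDC2, another WAP-domain protein, at r = 0.982, and 0.962 without the Detroit parent, followed by MDK (0.928, then 0.913) and RTP4 (0.924, then 0.847). WFDC2 read 8.81 and 7.81 in Detroit parent cells, 8.46 and 5.56 in Fadu parent cells and 4.96 to 6.52 elsewhere, with the same Fadu parent array high. PI3, SLPI and WFDC2 lie in 1 stretch of chromosome 20, with 2 coding genes between PI3 and SLPI and 7 between SLPI and WFDC2. SLPI, which lies between them, was less like PI3 (r = 0.654) and most like LCN2 (0.864, then 0.758), AGR2 (0.853, then 0.761) and NREP (0.832, then 0.810).

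LCN2 was most like STK38 (r = 0.888, then 0.869 without the Detroit parent), ANXA4 (0.871, then 0.839) and SYT1 (0.866, then 0.913). Each of these read higher on the second Detroit subline array than on the first, as LCN2 did: ANXA4 read 5.72 and 7.77 and SYT1 3.53 and 5.66. The flat members were matched by flat genes: CEACAM1 by ACRV1 (0.873), CTDP1 (0.867) and FNDC4 (0.865), and CEACAM5 217291_at by GPT (0.939), CRYAA (0.938) and CD93 (0.927).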

How the data were processed

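Per the labels' protocols, Trizol-extracted total RNA of 12 samples was biotin-labelled for Affymetrix arrays. The authors deposited log2 values of 22283 probe sets, and the submitters' processing notes name RMA and Partek version 7. Genome build and annotation were not given in the sources used here. Because RMA compresses low values, differences of genes near the floor are understated, and detection calls were not used here. Probe sets were named through the platform table: 19065 had 1 symbol, 1043 several and 2107 none, and 68 controls were left out.

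The deposited values were fitted with a mean for each of 6 groups with limma 3.58.1 in R 4.3.3 (empirical Bayes with an intensity trend). Invasion effects were compared between lines by contrasts and an F test, and averaged on the group means with line as a block. The replicate numbers did not pair the samples: the deviations of same-numbered arrays correlated at -0.168, -0.409 and -0.405 in the 3 lines. The fitting step was tested on simulated data. It recovered 5% of 2-fold and 57.9% of 4-fold changes put into the Detroit comparison, so a member not called may still differ.

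The text names every member probe set, up to 3 called genes per list, direction and comparison (invasion within a line, or between parents), and the 3 genes of highest Pearson r with the highest-mean probe set of each member. The members and lists were chosen with earlier results of these data known. Promoter windows came from RefSeq and were aligned with Biopython 1.88. Alternatives covered the filter, the probe sets per gene, trend, array weights, scaling, the replicate block, the ACTB covariate and single arrays left out. The second CEACAM5 probe set in the likeness search and the r without the Detroit parent were added after seeing the data.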

Additional observations from a re-analysis of the deposited data

Results flagged for a closer look

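The invasion difference of CEACAM6 passed the test of a difference between lines for Detroit against each other line, a call that several alternatives ended. On 203757_s_at the Detroit difference minus the Fadu difference was -4.19 and minus the OECM1 difference -4.43. On 211657_at these were -2.97 and -3.34. The filter kept 203757_s_at only through the Detroit parent arrays, so its calls are not support beyond the values. The call against Fadu was lost in 9 of 12 fits that left out 1 array and that against OECM1 in 4 of 12 and with array weights, where 0 members were called. The arrays labelled Detroit invasion subline were nearer to the Fadu parent than to the Detroit parent over all tested probe sets, and the part of that in these values was not tested.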

How the results depend on the processing

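Member counts were recomputed under each alternative, and single-gene differences beside them: of the single-gene values 472 kept their direction and side of the threshold, 49 no longer passed, 9 newly passed and 4 turned sign. With 1 probe set per gene the counts fell to 1 in Detroit, 1 for the Detroit against the Fadu parent and 2 against the OECM1 parent, since CEACAM5 is then read by its flat probe set and CEACAM6 by 1, and to 1 in each of the 3 tests between lines with a call. With only the arrays compared, the counts were 0 in Detroit and 7 for the Detroit against the OECM1 parent. The ACTB covariate gave 5 in Detroit. The Detroit against Fadu effect had 1 call with no filter and 1 with no intensity trend, and array weights left 0 calls for Detroit against OECM1 and 0 in the F test; the cause was not tested.

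With the replicate block the Detroit count stayed at 3, but the Detroit against Fadu effect had 0 calls, that against OECM1 had 1 and the F test 0, and other member counts did not change. A crossed replicate block, added because same-numbered deviations correlated negatively, gave 5 members in Detroit of 749 calls, 0 in Fadu and 0 in OECM1.

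Leaving out 1 array at a time, counts ran from 3 to 5 in Detroit, 3 to 5 for the Detroit against the Fadu parent, 3 to 6 against the OECM1 parent, 0 to 2 for Fadu against OECM1 parents, 0 to 1 for the Detroit subline against the Fadu parent, and 0 to 4 in each of the 2 Detroit contrasts between lines and in the F test. The 5 in Detroit came without Detroit parent replicate 2 or either Fadu parent array. The Fadu difference then ran from -2.85 to 0.03 for LCN2, -3.88 to 0.86 for SLPI and -2.75 to 0.05 for PI3, with the positive ends without Fadu parent replicate 1, and the OECM1 difference of PI3 from -0.62 to 0.31, with the positive end without OECM1 parent replicate 2. With 2 arrays per group, signal near the limit of 4.52 sets what could be measured for MUC4 and CEACAM1.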
